A study of Homo sapiens with 8 samples.

Results

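The 50 genes described here act in the replication of DNA during S phase. They were taken from a named list of gene symbols and found in the deposited count table through their Ensembl identifiers. All 50 were present among the 58336 identifiers, and all 50 passed the filter on low counts, as 50 of the 15220 genes tested. They cover 9 roles, which are the CMG helicase (12 genes), origin licensing (5), polymerases and primase (7), the sliding clamp and its loaders (5), nucleotide supply (3), Okazaki fragment processing and repair (5), chromatin at replicated DNA (6), E2F factors and E cyclins (4) and the replication checkpoint (3).

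The study measured polyadenylated RNA in SUM159, a human triple-negative breast cancer cell line, in 8 libraries. The 3 lung-recovered libraries came from ITGB4-low clone 1 cells that were given to mice by tail vein. Those mice received bleomycin, a drug that injures the lung, through the trachea. Their lungs were dissociated, the suspension was kept in dishes overnight, and tdTomato-positive tumour cells were sorted. The 3 ITGB4-low clone 1 libraries came from the same clone grown in dishes, and the 2 ITGB4-high libraries from SUM159 cells labelled high for integrin beta 4 and grown in dishes. Only 1 ITGB4-low clone was sequenced, so the clone cannot be told apart from low ITGB4. Passage through the lung, bleomycin, dissociation, overnight culture and sorting likewise cannot be told apart in the lung-recovered group.

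In G1, the origin recognition complex, CDC6 and CDT1 load the MCM2 to MCM7 ring onto origins. At the start of S phase, CDC45 and the GINS complex turn that ring into the active CMG helicase, and polymerases, clamp, ligase and nucleotide synthesis follow it at the fork. Many of these genes are transcribed under E2F factors, which are released from retinoblastoma family proteins as cyclin E kinase activity builds up in late G1.

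Total counts were 21031271 to 26304317 in the lung-recovered libraries, 20413724 to 24892352 in ITGB4-low clone 1 and 25923890 to 27218800 in ITGB4-high. Gene spans are those of GENCODE 29 on GRCh38. Levels are given as CPM, the gene count relative to the TMM-scaled library total, and a gene is called at an adjusted p below 0.05 in edgeR's quasi-likelihood test. ITGB4 itself was at 401, 375.5 and 407 CPM in the lung-recovered libraries, 5.29, 7.46 and 9.13 CPM in ITGB4-low clone 1 and 419.9 and 376 CPM in ITGB4-high. The lung-recovered libraries, labelled ITGB4 low, were therefore in the range of the ITGB4-high libraries for this gene. Of 43 marker genes for other cell types, 13 were at 0 in every library, among them the red cell gene HBB and the T cell gene CD3E. All of these markers are human genes and the lungs were those of mice, so their levels cannot show whether mouse cells were present. Summed fibroblast and smooth muscle markers were at 111 to 121 CPM in the lung-recovered libraries, 43.2 to 50.3 CPM in ITGB4-low clone 1 and 35.0 to 39.6 CPM in ITGB4-high. Most of this sum was COL1A1, a collagen gene, with a mean of 101 CPM in lung-recovered cells, 30.7 CPM in ITGB4-low clone 1 and 28.1 CPM in ITGB4-high. The other 6 markers of this list summed to 13.2 to 13.9 CPM in the lung-recovered libraries, 13.9 to 17.8 CPM in ITGB4-low clone 1 and 8.77 to 9.66 CPM in ITGB4-high. Among them PDGFRB, a growth factor receptor, was lower in lung-recovered cells than in ITGB4-low clone 1 (log2 fold change -0.37, edgeR adjusted p = 0.00698). Summed macrophage and myeloid markers were at 7.48 to 8.38 CPM in the lung-recovered libraries, 6.12 to 6.46 CPM in ITGB4-low clone 1 and 3.62 to 4.64 CPM in ITGB4-high. The part of these markers in the results below was not tested.

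The promoters of these genes were searched for the letters of E2F binding sites. Many of these genes are transcribed under E2F factors, so the shares below are not independent of how the genes were chosen. Promoter windows of 250 bases before to 50 bases after the start were taken from RefSeq (GRCh38.p14) and found for 43 of the 50 genes. They were searched on both strands for TTTCCCGC, TTTGGCGC, TTTCGCGC and TTTGCCGC, and matches may overlap. At least 1 match stood in 24 of the 43 windows (55.8%), against 908 of all 27305 RefSeq windows of that length (3.33%). CCAAT, searched in the same way, stood in 26 of 43 (60.5%) against 9747 of 27305 (35.7%). The 160 bases before the RefSeq start are shown for 4 chosen genes, each with at least 1 match. For CDCA7 the first 108 of them are shown, up to the start in GENCODE 29. E2F1, CDCA7 and PCNA were lower and MCM6 was higher in ITGB4-low clone 1 than in ITGB4-high. Capitals mark the E2F letters on either strand, so GCGGGAAA is TTTCCCGC read on the other strand.
E2F1 (chr20:33686386-33686545, minus strand): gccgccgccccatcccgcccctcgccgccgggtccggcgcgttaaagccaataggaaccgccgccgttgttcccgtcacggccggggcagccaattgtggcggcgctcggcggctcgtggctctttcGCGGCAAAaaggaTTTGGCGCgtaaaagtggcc
CDCA7 (chr2:173354712-173354819, plus strand): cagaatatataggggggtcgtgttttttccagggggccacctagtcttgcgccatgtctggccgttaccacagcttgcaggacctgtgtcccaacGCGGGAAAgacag
PCNA (chr20:5126623-5126782, minus strand): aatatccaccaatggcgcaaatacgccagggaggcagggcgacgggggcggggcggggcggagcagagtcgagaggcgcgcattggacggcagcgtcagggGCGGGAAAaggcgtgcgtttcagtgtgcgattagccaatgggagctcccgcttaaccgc
MCM6 (chr2:135876444-135876603, minus strand): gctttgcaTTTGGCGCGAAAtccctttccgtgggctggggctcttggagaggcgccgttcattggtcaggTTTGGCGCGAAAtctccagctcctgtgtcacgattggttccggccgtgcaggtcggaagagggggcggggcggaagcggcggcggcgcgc
In CDCA7 and PCNA there was a single match in the stretch, in each case TTTCCCGC on the opposite strand. E2F1 had a pair of different matches close together. In MCM6 each capital stretch holds TTTGGCGC and, overlapping it, TTTCGCGC on the other strand. UNG, the gene with the largest fall in ITGB4-low clone 1, had none of these letters in its window. Matches were found in genes called in either direction and in genes not called. In the comparison of ITGB4-low clone 1 with ITGB4-high they were in 4 of 6 higher, 11 of 22 lower and 9 of 15 uncalled genes with a window. In the comparison of lung-recovered cells with ITGB4-low clone 1 they were in 14 of 21 higher and 10 of 22 uncalled genes. The promoters of MCM4, MCM5, GINS4, POLD3, DSCC1, E2F8 and CCNE2 were not analysed here.

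In ITGB4-low clone 1 relative to ITGB4-high, more replication genes were lower than higher. Of the 50 genes, 26 were lower, 7 were higher and 17 were not called, where 27.6% of all tested genes were lower and 28.6% were higher. The largest falls were in UNG (log2 fold change -1.37), CDT1 (-1.19), E2F1 (-1.11), CDCA7 (-1.06) and CCNE2 (-1.05), and the largest rise was in MCM6 (0.79). The median log2 fold change over the 50 genes was -0.20, against 0.00090 over all tested genes. Past 1.5-fold, 8 of the 50 genes were called lower and 1 higher, where 8.17% of all tested genes were called lower and 14.7% higher past that size. The 2 groups' libraries did not overlap in 39 of the 50 genes, against 68.7% of all tested genes. The count of 7 higher genes fell to 3 without ITGB4-high replicate 1, to 3 without ITGB4-low replicate 1 and to 4 without ITGB4-low replicate 2. In these bulk libraries, fewer cells in S phase and less of a transcript per cell cannot be told apart.

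In lung-recovered cells relative to ITGB4-low clone 1, every called replication gene was higher. Of the 50 genes, 26 were higher, 0 were lower and 24 were not called, where 14.7% of all tested genes were higher and 15.4% were lower. The count of lower genes was also 0 at an unadjusted p below 0.05 in edgeR, with DESeq2, with limma-voom and in each of the other alternatives run. The largest rises were in CDCA7 (log2 fold change 0.83), PCNA (0.54), POLE2 (0.52), CCNE2 (0.50) and UNG (0.45). Most changes were small, with 1 gene called higher and 0 lower past 1.5-fold, against 4.84% and 4.58% of all tested genes, and a median log2 fold change of 0.20, against 0.00031 over all tested genes. Libraries of the 2 groups did not overlap in 33 of the 50 genes, against 43.3% of all tested genes.

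Lung-recovered cells set against ITGB4-high cells had calls in both directions. Of the 50 genes, 12 were higher, 18 were lower and 20 were not called, where 26.2% of all tested genes were higher and 25.0% were lower. POLE2 (log2 fold change 0.97) and MCM6 (0.91) had the largest rises, and UNG (-0.92), E2F1 (-0.86) and CDT1 (-0.77) the largest falls. Past 1.5-fold, 2 were called higher and 3 lower, against 12.8% and 5.72% of all tested genes. The median was -0.02, against 0.0051 over all tested genes, and the groups did not overlap in 37 of the 50 genes, against 66.8% of all tested genes. The 3 comparisons share libraries, so their values for a gene are set side by side and are not independent of each other. Among the 26 genes lower in ITGB4-low clone 1 than in ITGB4-high, 11 were called lower in lung-recovered cells than in ITGB4-high while also higher than in ITGB4-low clone 1. They were MCM2, MCM7, MCM10, CDT1, PCNA, UNG, CHAF1A, CDCA7, SLBP, E2F1 and CCNE2. The share of all tested genes with this combination of calls was not counted, so the 11 cannot be set against it. Summed over the 50 genes, the level was 2884 to 3040 CPM in the lung-recovered libraries, 2476 to 2584 CPM in ITGB4-low clone 1 and 2992 to 3016 CPM in ITGB4-high.

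**Figure D1:**
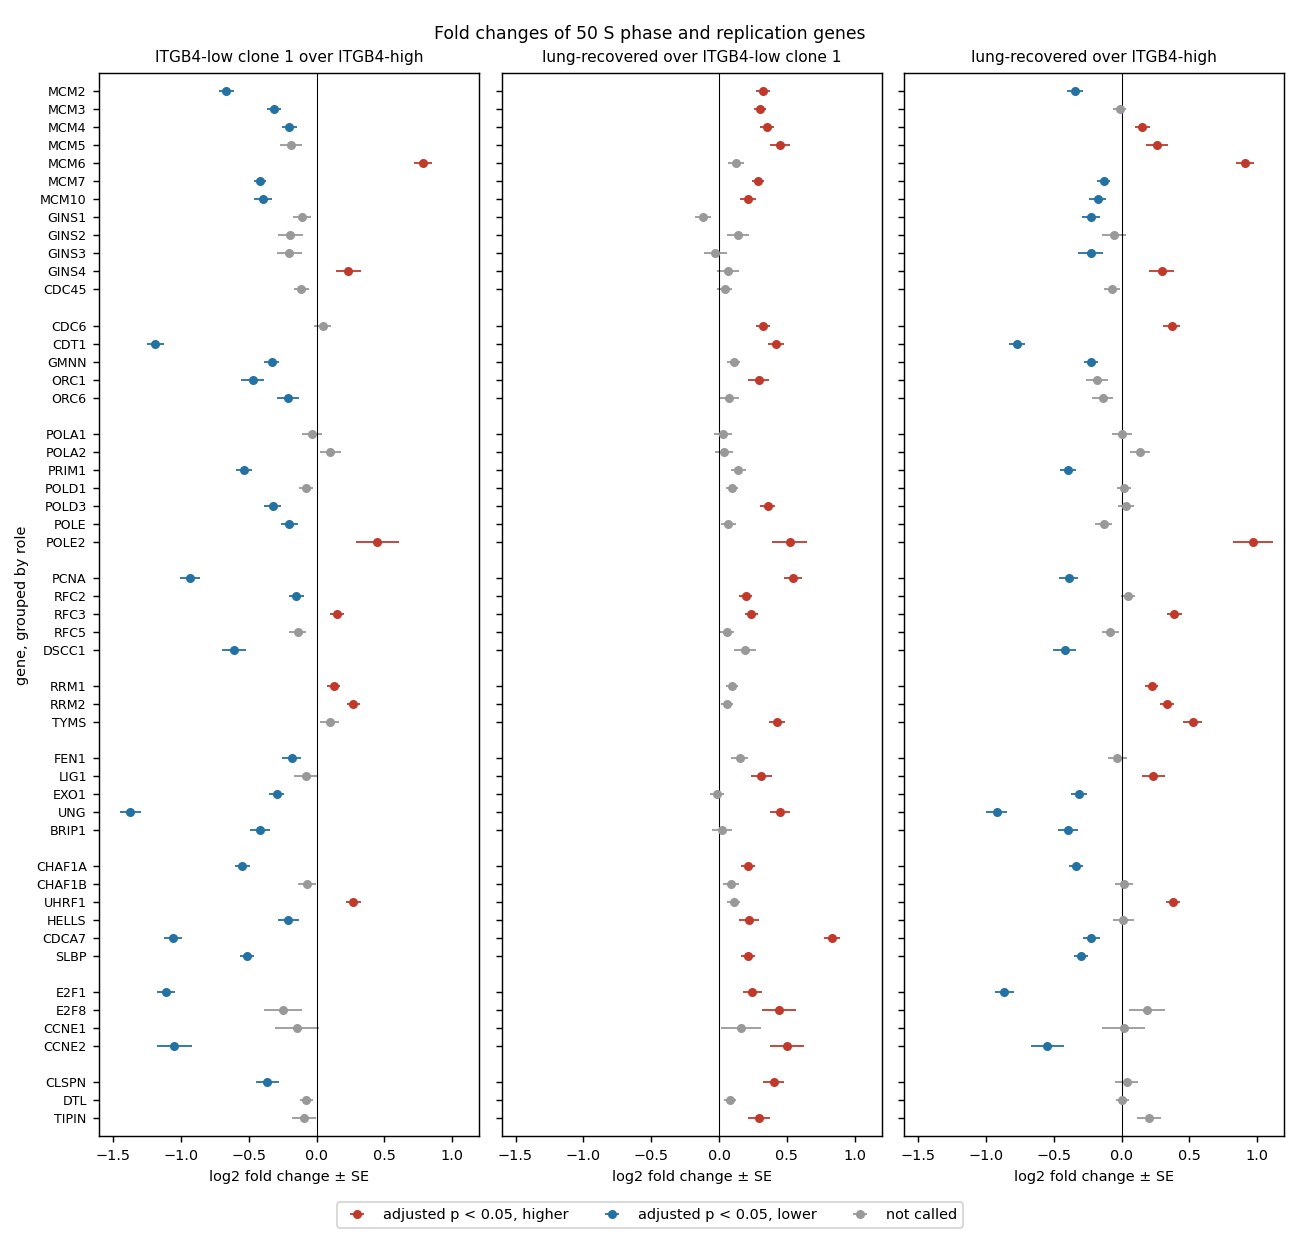
Log2 fold changes with their standard errors (horizontal axis) of the 50 genes, grouped by role down the page, in the 3 comparisons. In the middle panel, lung-recovered over ITGB4-low clone 1, all 26 called genes lie to the right of 0; in the left panel, 26 of 33 called genes lie to the left.

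Of the 12 helicase genes, 5 were lower and 2 were higher in ITGB4-low clone 1 than in ITGB4-high. In lung-recovered cells over ITGB4-low clone 1, 6 were higher and 0 were lower. These are 41.7%, 16.7%, 50% and 0%, against 27.6%, 28.6%, 14.7% and 15.4% of all tested genes. The MCM2 to MCM7 subunits among them did not move as one group. In ITGB4-low clone 1 relative to ITGB4-high, MCM2, MCM3, MCM4 and MCM7 were lower, MCM6 was higher and MCM5 was not called. MCM2 (ENSG00000073111, chr3:127598223-127622436, plus strand) was at 128, 145 and 135 CPM in the lung-recovered libraries, 112, 107 and 107 CPM in the ITGB4-low clone 1 libraries and 181 and 163 CPM in the ITGB4-high libraries. Its levels were highest in ITGB4-high, lowest in ITGB4-low clone 1 and between them in lung-recovered cells, with no overlap of the 3 groups. The log2 fold changes of MCM2 were -0.66 (SE 0.06, adjusted p = 6.02e-09) in ITGB4-low clone 1 over ITGB4-high, 0.32 (SE 0.05, adjusted p = 7.66e-05) in lung-recovered cells over ITGB4-low clone 1, and -0.34 (SE 0.06, adjusted p = 4.3e-05) in lung-recovered cells over ITGB4-high.

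MCM6 (ENSG00000076003, chr2:135839626-135876426, minus strand) was at 73.5, 82.9 and 71.1 CPM in the lung-recovered libraries, 72.9, 66.5 and 69.0 CPM in the ITGB4-low clone 1 libraries and 39.6 and 40.9 CPM in the ITGB4-high libraries. All 6 libraries of clone 1 origin, lung-recovered or not, were far above both ITGB4-high libraries. MCM6 was higher in ITGB4-low clone 1 than in ITGB4-high by a log2 fold change of 0.79 (SE 0.07, adjusted p = 5.25e-09) and higher in lung-recovered cells than in ITGB4-high by 0.91 (SE 0.07, adjusted p = 7.69e-10). Between lung-recovered cells and ITGB4-low clone 1 the log2 fold change was 0.13 (SE 0.06, adjusted p = 0.106), and it was called without ITGB4-low replicate 1 (adjusted p = 0.0465).

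Each of the other 4 ring subunits was higher in lung-recovered cells than in ITGB4-low clone 1, where 14.7% of all tested genes were higher. MCM3 was at 119.6, 128 and 119.9 CPM in the lung-recovered libraries, 98.6, 98.4 and 101 CPM in the ITGB4-low clone 1 libraries and 127 and 121 CPM in the ITGB4-high libraries. MCM4 was at 129, 141 and 129 CPM in the lung-recovered libraries, 110.5, 99.9 and 101 CPM in the ITGB4-low clone 1 libraries and 119 and 119.7 CPM in the ITGB4-high libraries. For both, each lung-recovered library was above each ITGB4-low clone 1 library. Their log2 fold changes there were 0.30 (SE 0.04, adjusted p = 2.94e-05) for MCM3 and 0.35 (SE 0.05, adjusted p = 1.39e-05) for MCM4. MCM5 was at 78.2, 96.4 and 80.7 CPM in the lung-recovered libraries, 69.6, 60.4 and 57.4 CPM in the ITGB4-low clone 1 libraries and 73.6 and 68.4 CPM in the ITGB4-high libraries. MCM7 was at 184, 198 and 182 CPM in the lung-recovered libraries, 155, 152 and 156 CPM in the ITGB4-low clone 1 libraries and 207 and 205 CPM in the ITGB4-high libraries. Lung-recovered replicate 2 was the highest library of its group for MCM2 to MCM7. The log2 fold changes were 0.45 (SE 0.07, adjusted p = 9.46e-05) for MCM5 and 0.28 (SE 0.04, adjusted p = 3.41e-05) for MCM7. In lung-recovered cells over ITGB4-high, MCM4 (log2 fold change 0.15) and MCM5 (0.26) were higher, MCM7 (-0.13) was lower, and MCM3 was at -0.01 (SE 0.05, adjusted p = 0.824). Each of these 3 calls ended without 1 or another library. The call of MCM4 ended without ITGB4-high replicate 1 or ITGB4-high replicate 2 or lung-recovered replicate 2 (adjusted p = 0.0939 to 0.126). That of MCM5 ended without ITGB4-high replicate 2 or lung-recovered replicate 2 (adjusted p = 0.0737 to 0.139), and that of MCM7 without ITGB4-high replicate 1 or ITGB4-high replicate 2 or lung-recovered replicate 1 or lung-recovered replicate 3 and with a replicate block (adjusted p = 0.0519 to 0.116). In ITGB4-low clone 1 over ITGB4-high, MCM5 (log2 fold change -0.19, SE 0.08, adjusted p = 0.0603) became a call without ITGB4-low replicate 1 or lung-recovered replicate 2 and with no filter on low counts or only the 2 groups in the fit (adjusted p = 0.00492 to 0.0461).

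As shares of the summed MCM2 to MCM7 level per kilobase of exon, MCM6 took 12.0 ± 0.359% in lung-recovered cells, 13.5 ± 0.277% in ITGB4-low clone 1 and 6.41 ± 0.322% in ITGB4-high (SD, n = 3, 3 and 2). MCM2 took 18.1 ± 0.464% in lung-recovered cells, 17.7 ± 0.177% in ITGB4-low clone 1 and 23.0 ± 1.04% in ITGB4-high (SD, same n). The 6 clone 1 libraries thus had a higher share of MCM6 and a lower share of MCM2 than either ITGB4-high library. The mean share of MCM3 was 21.9% in lung-recovered cells, 21.8% in ITGB4-low clone 1 and 22.2% in ITGB4-high.

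**Figure D2:**
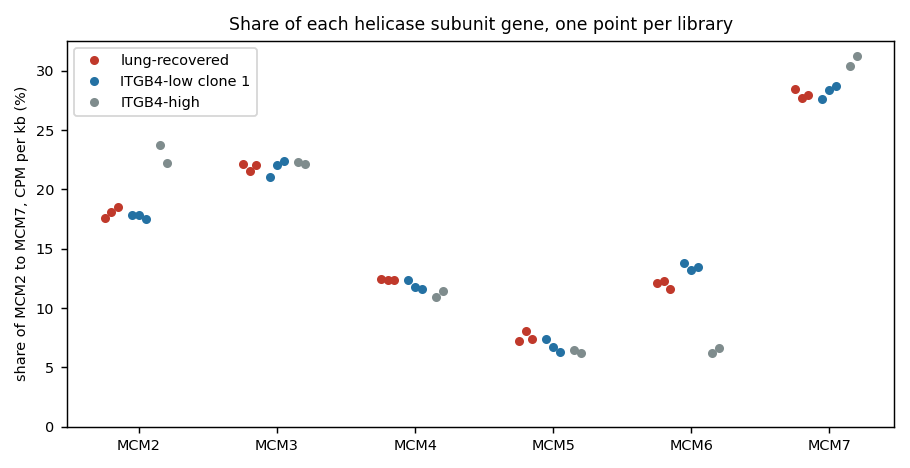
Share of each subunit gene in the summed MCM2 to MCM7 level (vertical axis, percent, from CPM per kilobase of exon), 1 point per library, for lung-recovered, ITGB4-low clone 1 and ITGB4-high cells. MCM6 stands at 6.41% on average in ITGB4-high and at 12.0% and 13.5% in the lung-recovered and ITGB4-low clone 1 groups.

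The GINS subunits and CDC45 complete the CMG helicase. Of GINS1 to GINS4, 1 was higher and 0 lower in ITGB4-low clone 1 than in ITGB4-high. The shares of all tested genes there were 28.6% and 27.6%. In lung-recovered cells over ITGB4-high, 1 was higher and 2 were lower, against 26.2% and 25.0% of all tested genes. CDC45 was at 46.1, 46.4 and 45.5 CPM in the lung-recovered libraries, 47.4, 43.2 and 43.7 CPM in the ITGB4-low clone 1 libraries and 47.7 and 48.9 CPM in the ITGB4-high libraries, with the ITGB4-high libraries just above the others. It was not called in any comparison, at a log2 fold change of -0.11 in ITGB4-low clone 1 over ITGB4-high, 0.04 in lung-recovered cells over ITGB4-low clone 1 and -0.07 in lung-recovered cells over ITGB4-high. The first of these was called without ITGB4-low replicate 1 (adjusted p = 0.032). None of GINS1 to GINS4 was called between lung-recovered cells and ITGB4-low clone 1. Of all tested genes, 14.7% were higher and 15.4% lower there. GINS4 was at 22.9, 28.3 and 22.9 CPM in the lung-recovered libraries, 24.9, 24.0 and 21.9 CPM in the ITGB4-low clone 1 libraries and 20.5 and 19.6 CPM in the ITGB4-high libraries. In GINS4 lung-recovered replicate 2 stood above all other libraries. It was higher in ITGB4-low clone 1 than in ITGB4-high, at a log2 fold change of 0.23 (SE 0.09, adjusted p = 0.0383), and higher in lung-recovered cells than in ITGB4-high, at 0.30 (SE 0.09, adjusted p = 0.0103). The first of these calls ended without ITGB4-high replicate 1 or ITGB4-high replicate 2 or ITGB4-low replicate 1 or ITGB4-low replicate 2 and with DESeq2 (adjusted p = 0.0646 to 0.197), and the second without ITGB4-high replicate 2 or lung-recovered replicate 2 (adjusted p = 0.0641 to 0.0896). GINS1 (log2 fold change -0.23) and GINS3 (-0.23) were lower in lung-recovered cells than in ITGB4-high. The GINS3 call ended without ITGB4-high replicate 1 or lung-recovered replicate 1 or lung-recovered replicate 3 and with upper-quartile scaling or DESeq2 or a replicate block (adjusted p = 0.0553 to 0.261). GINS2, at a log2 fold change of -0.19 in ITGB4-low clone 1 over ITGB4-high, was called without ITGB4-high replicate 2 (adjusted p = 0.0232), and GINS3, at -0.20, was called without ITGB4-low replicate 1 (adjusted p = 0.00804). MCM10, which helps to start the assembled helicase, was lower in ITGB4-low clone 1 than in ITGB4-high (log2 fold change -0.39, SE 0.06, adjusted p = 3.32e-05) and higher in lung-recovered cells than in ITGB4-low clone 1 (0.22, SE 0.06, adjusted p = 0.00905), the second ending without ITGB4-low replicate 2 (adjusted p = 0.0532). It was lower in lung-recovered cells than in ITGB4-high (log2 fold change -0.18, SE 0.06, adjusted p = 0.0249), a call that ended without ITGB4-high replicate 1 or ITGB4-high replicate 2 or lung-recovered replicate 1 and with no filter on low counts or DESeq2 or a replicate block (adjusted p = 0.0506 to 0.0862).

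Of the 5 licensing genes, 4 were lower in ITGB4-low clone 1 than in ITGB4-high and the other was not called, and 3 were higher in lung-recovered cells than in ITGB4-low clone 1. The shares of all tested genes were 27.6% lower in the first comparison and 14.7% higher in the second. CDT1 (ENSG00000167513, chr16:88803213-88809258, plus strand), which brings the MCM ring to origins, was at 56.1, 57.0 and 54.6 CPM in the lung-recovered libraries, 38.4, 42.6 and 44.3 CPM in the ITGB4-low clone 1 libraries and 101 and 90.2 CPM in the ITGB4-high libraries. Both ITGB4-high libraries were well above all 6 others, and each lung-recovered library was above each ITGB4-low clone 1 library. The log2 fold changes of CDT1 were -1.19 (SE 0.06, adjusted p = 3.4e-12) in ITGB4-low clone 1 over ITGB4-high, 0.42 (SE 0.06, adjusted p = 1.62e-05) in lung-recovered cells over ITGB4-low clone 1 and -0.77 (SE 0.06, adjusted p = 2.53e-09) in lung-recovered cells over ITGB4-high. GMNN, which encodes geminin, the inhibitor of CDT1, was at 51.7, 54.7 and 51.8 CPM in the lung-recovered libraries, 48.3, 50.5 and 48.0 CPM in the ITGB4-low clone 1 libraries and 60.7 and 62.4 CPM in the ITGB4-high libraries. ITGB4-high was again the highest group, but by a smaller margin than for CDT1. GMNN was lower in ITGB4-low clone 1 than in ITGB4-high, at a log2 fold change of -0.33 (SE 0.05, adjusted p = 2.94e-05), and lower in lung-recovered cells than in ITGB4-high, at -0.22 (SE 0.05, adjusted p = 0.00152). Between lung-recovered cells and ITGB4-low clone 1 it was at a log2 fold change of 0.11 (SE 0.05, adjusted p = 0.115). The ratio of CDT1 to GMNN in CPM, not corrected for length, was 1.04 to 1.09 in the lung-recovered libraries, 0.794 to 0.924 in ITGB4-low clone 1 and 1.45 to 1.66 in ITGB4-high. The 3 groups did not overlap in that ratio.

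CDC6, the loading ATPase, differed from CDT1 in which groups were alike. It was at 77.9, 74.4 and 79.9 CPM in the lung-recovered libraries, 64.1, 56.6 and 64.7 CPM in the ITGB4-low clone 1 libraries and 58.6 and 61.3 CPM in the ITGB4-high libraries. The lung-recovered libraries were above the other 5, which overlapped each other. CDC6 was higher in lung-recovered cells than in ITGB4-low clone 1, at a log2 fold change of 0.32 (SE 0.05, adjusted p = 0.000105), and than in ITGB4-high, at 0.37 (SE 0.06, adjusted p = 3.75e-05), while ITGB4-low clone 1 over ITGB4-high was at 0.05 (SE 0.06, adjusted p = 0.552). ORC1, the largest origin recognition subunit, was lower in ITGB4-low clone 1 than in ITGB4-high (log2 fold change -0.47, SE 0.08, adjusted p = 6.78e-05) and higher in lung-recovered cells than in ITGB4-low clone 1 (0.29, SE 0.08, adjusted p = 0.00656). ORC6, the smallest subunit, was lower in ITGB4-low clone 1 than in ITGB4-high (log2 fold change -0.21, SE 0.08, adjusted p = 0.0291). That call ended without ITGB4-high replicate 2 or ITGB4-low replicate 2 or ITGB4-low replicate 3 (adjusted p = 0.0603 to 0.493). ORC6 in lung-recovered cells over ITGB4-high (log2 fold change -0.14) was called without ITGB4-high replicate 1 (adjusted p = 0.0146).

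Of the 7 polymerase and primase genes, 3 were lower and 1 was higher in ITGB4-low clone 1 than in ITGB4-high, and 2 were higher in lung-recovered cells than in ITGB4-low clone 1. These are 42.9%, 14.3% and 28.6%, against 27.6%, 28.6% and 14.7% of all tested genes. POLE2 (ENSG00000100479, chr14:49643555-49688422, minus strand), the second subunit of the leading strand polymerase epsilon, had low levels, at 8.86, 9.08 and 9.21 CPM in the lung-recovered libraries, 7.77, 5.35 and 5.87 CPM in the ITGB4-low clone 1 libraries and 4.15 and 5.10 CPM in the ITGB4-high libraries. The lung-recovered libraries were above all others. The ITGB4-low clone 1 libraries were above the ITGB4-high libraries, with the smallest gap between 5.35 and 5.10 CPM. Its log2 fold changes were 0.45 (SE 0.16, adjusted p = 0.02) in ITGB4-low clone 1 over ITGB4-high, 0.52 (SE 0.13, adjusted p = 0.00406) in lung-recovered cells over ITGB4-low clone 1 and 0.97 (SE 0.15, adjusted p = 1.83e-05) in lung-recovered cells over ITGB4-high. The first of these calls ended without ITGB4-high replicate 1 or ITGB4-low replicate 1 (adjusted p = 0.112 to 0.22). POLE, the catalytic subunit, was lower in ITGB4-low clone 1 than in ITGB4-high (log2 fold change -0.20, SE 0.06, adjusted p = 0.0102), a call that ended without ITGB4-high replicate 1 (adjusted p = 0.0678). POLE in lung-recovered cells over ITGB4-high (log2 fold change -0.13) was called without ITGB4-low replicate 1 (adjusted p = 0.044). POLD3, an accessory subunit of the lagging strand polymerase delta, was lower in ITGB4-low clone 1 than in ITGB4-high (log2 fold change -0.32, SE 0.06, adjusted p = 0.000187) and higher in lung-recovered cells than in ITGB4-low clone 1 (0.36, SE 0.06, adjusted p = 5.88e-05). PRIM1, the catalytic primase subunit, was lower in ITGB4-low clone 1 (log2 fold change -0.54, SE 0.06, adjusted p = 2.06e-07) and in lung-recovered cells (-0.39, SE 0.06, adjusted p = 1.19e-05) than in ITGB4-high. In lung-recovered cells over ITGB4-low clone 1, PRIM1 (log2 fold change 0.14) was called without lung-recovered replicate 1 (adjusted p = 0.0317), and POLD1 (0.10), the catalytic subunit of polymerase delta, without ITGB4-low replicate 1 (adjusted p = 0.0289). POLA1, POLA2 and POLD1 were not called in any comparison of all 8 libraries.

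Among the 5 clamp and loader genes, 3 were lower and 1 was higher in ITGB4-low clone 1 than in ITGB4-high, and 3 were higher in lung-recovered cells than in ITGB4-low clone 1. These are 60%, 20% and 60%, against 27.6%, 28.6% and 14.7% of all tested genes. PCNA (ENSG00000132646, chr20:5114953-5126626, minus strand), the sliding clamp, was at 72.8, 75.6 and 73.8 CPM in the lung-recovered libraries, 43.4, 52.4 and 56.2 CPM in the ITGB4-low clone 1 libraries and 98.0 and 96.0 CPM in the ITGB4-high libraries. The ITGB4-high libraries were highest, the ITGB4-low clone 1 libraries lowest, and no groups overlapped. PCNA was lower in ITGB4-low clone 1 than in ITGB4-high, at a log2 fold change of -0.93 (SE 0.07, adjusted p = 1.13e-09), higher in lung-recovered cells than in ITGB4-low clone 1, at 0.54 (SE 0.07, adjusted p = 2.36e-06), and lower in lung-recovered cells than in ITGB4-high, at -0.39 (SE 0.07, adjusted p = 0.000102). DSCC1, a subunit of an alternative clamp loader, was at 19.7, 16.5 and 16.8 CPM in the lung-recovered libraries, 15.3, 14.4 and 16.5 CPM in the ITGB4-low clone 1 libraries and 23.5 and 23.7 CPM in the ITGB4-high libraries. Both ITGB4-high libraries were above all others. It was lower in ITGB4-low clone 1 (log2 fold change -0.61, SE 0.09, adjusted p = 6.73e-06) and in lung-recovered cells (-0.42, SE 0.09, adjusted p = 0.000399) than in ITGB4-high.

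RFC3, a subunit of the main clamp loader, had the opposite order to PCNA in the dish-grown cells. It was at 64.1, 65.4 and 63.2 CPM in the lung-recovered libraries, 55.8, 54.3 and 53.4 CPM in the ITGB4-low clone 1 libraries and 47.5 and 50.7 CPM in the ITGB4-high libraries. Lung-recovered libraries were highest and ITGB4-high libraries lowest. The log2 fold changes of RFC3 were 0.15 (SE 0.05, adjusted p = 0.0249) in ITGB4-low clone 1 over ITGB4-high, 0.24 (SE 0.05, adjusted p = 0.000744) in lung-recovered cells over ITGB4-low clone 1 and 0.39 (SE 0.05, adjusted p = 5.67e-06) in lung-recovered cells over ITGB4-high. The first of these ended without ITGB4-high replicate 1 or ITGB4-low replicate 1 or ITGB4-low replicate 2 and with no filter on low counts or DESeq2 (adjusted p = 0.0563 to 0.255). RFC2 was lower in ITGB4-low clone 1 than in ITGB4-high (log2 fold change -0.15, SE 0.05, adjusted p = 0.0211), a call that ended without ITGB4-high replicate 1 or ITGB4-low replicate 2 (adjusted p = 0.0632 to 0.0708), and higher in lung-recovered cells than in ITGB4-low clone 1 (0.20, SE 0.05, adjusted p = 0.00326). RFC5 was not called in any comparison.

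All 3 nucleotide supply genes were higher in lung-recovered cells than in ITGB4-high, where 26.2% of all tested genes were higher. TYMS (ENSG00000176890, chr18:657604-673578, plus strand), thymidylate synthase, was at 86.0, 104 and 88.7 CPM in the lung-recovered libraries, 67.7, 72.6 and 66.6 CPM in the ITGB4-low clone 1 libraries and 65.7 and 63.2 CPM in the ITGB4-high libraries. The lung-recovered libraries were above the other 5. TYMS was higher in lung-recovered cells than in ITGB4-low clone 1, at a log2 fold change of 0.43 (SE 0.06, adjusted p = 1.76e-05), and than in ITGB4-high, at 0.52 (SE 0.07, adjusted p = 2.54e-06). RRM2, the S phase subunit of ribonucleotide reductase, was at 215, 225 and 203 CPM in the lung-recovered libraries, 211, 204 and 200.1 CPM in the ITGB4-low clone 1 libraries and 169 and 171 CPM in the ITGB4-high libraries. Here the 6 clone 1 libraries were all above both ITGB4-high libraries. RRM2 was higher in ITGB4-low clone 1 than in ITGB4-high, at a log2 fold change of 0.27 (SE 0.05, adjusted p = 0.000117), and higher in lung-recovered cells than in ITGB4-high, at 0.33 (SE 0.05, adjusted p = 1.4e-05), while lung-recovered cells over ITGB4-low clone 1 were at 0.06 (SE 0.04, adjusted p = 0.327). RRM1, the large subunit, was higher in ITGB4-low clone 1 (log2 fold change 0.13, SE 0.05, adjusted p = 0.0305) and in lung-recovered cells (0.22, SE 0.05, adjusted p = 0.000623) than in ITGB4-high. The first RRM1 call ended without ITGB4-high replicate 1 or ITGB4-high replicate 2 or ITGB4-low replicate 1 or ITGB4-low replicate 2 and with no filter on low counts (adjusted p = 0.0517 to 0.223). RRM1 in lung-recovered cells over ITGB4-low clone 1 (log2 fold change 0.10) was called without ITGB4-low replicate 1 (adjusted p = 0.0482).

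Of the 5 Okazaki fragment and repair genes, 4 were lower in ITGB4-low clone 1 than in ITGB4-high and the other, LIG1, was not called. The share of all tested genes lower there was 27.6%. UNG (ENSG00000076248, chr12:109097574-109110992, plus strand), the uracil-DNA glycosylase that removes uracil from new DNA, was at 42.6, 47.6 and 48.1 CPM in the lung-recovered libraries, 29.6, 33.1 and 38.1 CPM in the ITGB4-low clone 1 libraries and 91.0 and 83.6 CPM in the ITGB4-high libraries. The ITGB4-high libraries were above all others, and the lung-recovered libraries were above the ITGB4-low clone 1 libraries. The log2 fold changes of UNG were -1.37 (SE 0.08, adjusted p = 1.1e-11) in ITGB4-low clone 1 over ITGB4-high, 0.45 (SE 0.07, adjusted p = 9.56e-05) in lung-recovered cells over ITGB4-low clone 1 and -0.92 (SE 0.08, adjusted p = 4.2e-09) in lung-recovered cells over ITGB4-high. LIG1, the ligase that joins Okazaki fragments, was higher in lung-recovered cells than in ITGB4-low clone 1 (log2 fold change 0.31, SE 0.08, adjusted p = 0.00435) and than in ITGB4-high (0.23, SE 0.08, adjusted p = 0.0263). The second LIG1 call ended without ITGB4-high replicate 1 or lung-recovered replicate 2 (adjusted p = 0.128 to 0.31). FEN1, the flap endonuclease, was lower in ITGB4-low clone 1 than in ITGB4-high (log2 fold change -0.18, SE 0.07, adjusted p = 0.036), a call that ended without ITGB4-high replicate 1 or ITGB4-low replicate 3 or lung-recovered replicate 1 and with upper-quartile scaling or DESeq2 or a replicate block or only the 2 groups in the fit (adjusted p = 0.055 to 0.521). FEN1 in lung-recovered cells over ITGB4-low clone 1 (log2 fold change 0.15) was called without ITGB4-high replicate 1 and with only the 2 groups in the fit (adjusted p = 0.0437 to 0.0472). EXO1, an exonuclease of mismatch repair, and BRIP1, a helicase that acts at damaged forks, were lower in both clone 1 groups than in ITGB4-high. For EXO1 the log2 fold changes were -0.30 (SE 0.06, adjusted p = 0.000241) in ITGB4-low clone 1 and -0.31 (SE 0.06, adjusted p = 0.000159) in lung-recovered cells. For BRIP1 the log2 fold changes were -0.42 (SE 0.08, adjusted p = 9.42e-05) in ITGB4-low clone 1 and -0.40 (SE 0.07, adjusted p = 0.000177) in lung-recovered cells. Between lung-recovered cells and ITGB4-low clone 1, EXO1 (log2 fold change -0.02) and BRIP1 (0.02) were not called.

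Of the 6 chromatin genes, 4 were lower and 1 was higher in ITGB4-low clone 1 than in ITGB4-high, and 4 were higher in lung-recovered cells than in ITGB4-low clone 1. These are 66.7%, 16.7% and 66.7%, against 27.6%, 28.6% and 14.7% of all tested genes. CDCA7 (ENSG00000144354, chr2:173354820-173368997, plus strand), which recruits the remodelling enzyme HELLS to nucleosomes, was at 67.0, 62.9 and 70.4 CPM in the lung-recovered libraries, 37.3, 35.5 and 39.7 CPM in the ITGB4-low clone 1 libraries and 73.7 and 82.5 CPM in the ITGB4-high libraries. The ITGB4-low clone 1 libraries were far below the other 5, and the ITGB4-high libraries were above the lung-recovered ones. CDCA7 was lower in ITGB4-low clone 1 than in ITGB4-high, at a log2 fold change of -1.06 (SE 0.07, adjusted p = 4.24e-11), and higher in lung-recovered cells than in ITGB4-low clone 1, at 0.83 (SE 0.06, adjusted p = 1.47e-09). Lung-recovered cells over ITGB4-high were at a log2 fold change of -0.22 (SE 0.06, adjusted p = 0.00548), a call that ended without ITGB4-high replicate 2 (adjusted p = 0.11). UHRF1, which brings DNA methyltransferase to newly copied DNA, was at 63.4, 68.5 and 65.0 CPM in the lung-recovered libraries, 60.2, 60.6 and 61.6 CPM in the ITGB4-low clone 1 libraries and 50.2 and 50.6 CPM in the ITGB4-high libraries. Both clone 1 groups were above ITGB4-high. UHRF1 was higher in ITGB4-low clone 1 (log2 fold change 0.27, SE 0.05, adjusted p = 0.00025) and in lung-recovered cells (0.38, SE 0.05, adjusted p = 6.33e-06) than in ITGB4-high, with 0.11 (SE 0.05, adjusted p = 0.0904) between lung-recovered cells and ITGB4-low clone 1.

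HELLS was lower in ITGB4-low clone 1 than in ITGB4-high (log2 fold change -0.21, SE 0.08, adjusted p = 0.0307) and higher in lung-recovered cells than in ITGB4-low clone 1 (0.22, SE 0.07, adjusted p = 0.024). The first HELLS call ended without ITGB4-high replicate 1 or ITGB4-high replicate 2 or ITGB4-low replicate 2 or ITGB4-low replicate 3 and with upper-quartile scaling or DESeq2 or a replicate block (adjusted p = 0.05 to 0.144), and the second without ITGB4-low replicate 2 or ITGB4-low replicate 3 or lung-recovered replicate 1 or lung-recovered replicate 2 (adjusted p = 0.0844 to 0.112). CHAF1A, the large subunit of the histone chaperone that deposits nucleosomes behind the fork, was lower in ITGB4-low clone 1 than in ITGB4-high (log2 fold change -0.55, SE 0.05, adjusted p = 3.59e-08). It was higher in lung-recovered cells than in ITGB4-low clone 1 (log2 fold change 0.21, SE 0.05, adjusted p = 0.0024) and lower than in ITGB4-high (-0.33, SE 0.05, adjusted p = 2.38e-05). SLBP, which binds the stem-loop of histone mRNAs, had the same order of calls, at a log2 fold change of -0.51 (SE 0.05, adjusted p = 1.03e-07) in ITGB4-low clone 1 over ITGB4-high, 0.21 (SE 0.05, adjusted p = 0.00235) in lung-recovered cells over ITGB4-low clone 1 and -0.30 (SE 0.05, adjusted p = 9.55e-05) in lung-recovered cells over ITGB4-high. CHAF1B, a partner of CHAF1A, was not called in any comparison.

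E2F1 (ENSG00000101412, chr20:33675683-33686404, minus strand), an activating E2F factor, was at 23.4, 22.9 and 24.1 CPM in the lung-recovered libraries, 21.4, 19.6 and 18.6 CPM in the ITGB4-low clone 1 libraries and 43.3 and 42.3 CPM in the ITGB4-high libraries. The ITGB4-high libraries were far above the other 6, and the lung-recovered libraries were all above the ITGB4-low clone 1 libraries. The log2 fold changes of E2F1 were -1.11 (SE 0.07, adjusted p = 5.05e-11) in ITGB4-low clone 1 over ITGB4-high, 0.25 (SE 0.07, adjusted p = 0.0086) in lung-recovered cells over ITGB4-low clone 1 and -0.86 (SE 0.07, adjusted p = 2.14e-09) in lung-recovered cells over ITGB4-high. The second ended without ITGB4-low replicate 3 (adjusted p = 0.0626). CCNE2, a cyclin E gene, was at 5.42, 5.15 and 5.68 CPM in the lung-recovered libraries, 3.59, 3.89 and 3.98 CPM in the ITGB4-low clone 1 libraries and 8.07 and 7.79 CPM in the ITGB4-high libraries. The order of groups was that of E2F1, with no overlap. CCNE2 was lower in ITGB4-low clone 1 than in ITGB4-high, at a log2 fold change of -1.05 (SE 0.13, adjusted p = 9.8e-07), higher in lung-recovered cells than in ITGB4-low clone 1, at 0.50 (SE 0.13, adjusted p = 0.00461), and lower in lung-recovered cells than in ITGB4-high, at -0.55 (SE 0.12, adjusted p = 0.000914). CCNE1, the other cyclin E gene, was at 3.65, 3.36 and 4.10 CPM in the lung-recovered libraries, 3.50, 3.33 and 3.18 CPM in the ITGB4-low clone 1 libraries and 3.47 and 3.90 CPM in the ITGB4-high libraries, with overlapping groups. It was not called in any comparison, at a log2 fold change of -0.15 (SE 0.16, adjusted p = 0.472) in ITGB4-low clone 1 over ITGB4-high, 0.16 (SE 0.15, adjusted p = 0.46) in lung-recovered cells over ITGB4-low clone 1 and 0.02 (SE 0.16, adjusted p = 0.945) in lung-recovered cells over ITGB4-high. E2F8, a repressive E2F factor, was higher in lung-recovered cells than in ITGB4-low clone 1 (log2 fold change 0.44, SE 0.12, adjusted p = 0.0112), a call that ended without lung-recovered replicate 3 (adjusted p = 0.0546).

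**Figure D3:**
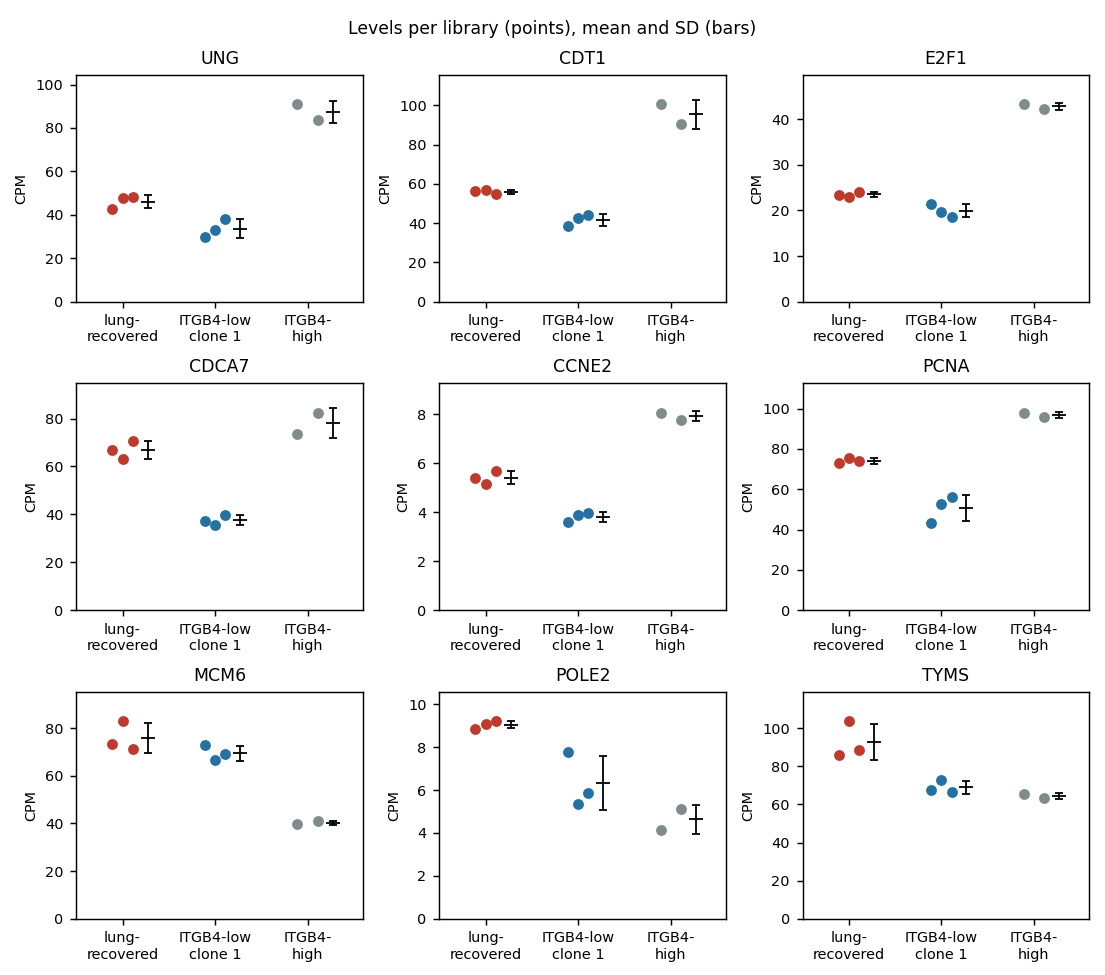
CPM (vertical axes, from 0) in each library of lung-recovered, ITGB4-low clone 1 and ITGB4-high cells for 9 genes, 1 point per library, with the group mean and SD beside the points. UNG, CDT1 and E2F1 stand highest in ITGB4-high, and MCM6 stands lowest there.

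Of the 3 checkpoint genes, CLSPN, the mediator of ATR signalling to CHK1, was lower in ITGB4-low clone 1 than in ITGB4-high (log2 fold change -0.36, SE 0.09, adjusted p = 0.00142) and higher in lung-recovered cells than in ITGB4-low clone 1 (0.40, SE 0.08, adjusted p = 0.000567). TIPIN, a partner of TIMELESS at the fork, was higher in lung-recovered cells than in ITGB4-low clone 1 (log2 fold change 0.29, SE 0.08, adjusted p = 0.00745). TIPIN in lung-recovered cells over ITGB4-high (log2 fold change 0.20) was called without lung-recovered replicate 1 and with upper-quartile scaling (adjusted p = 0.0351 to 0.0461). DTL, the substrate receptor of the ubiquitin ligase that degrades CDT1 in S phase, was not called in any comparison. Across the roles, 9 of the 50 genes were not called in any comparison, namely GINS2, CDC45, POLA1, POLA2, POLD1, RFC5, CHAF1B, CCNE1 and DTL. The share of all tested genes without a call in any comparison was not counted.

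A further 50 replication genes had calls in both directions in each comparison. In ITGB4-low clone 1 relative to ITGB4-high, 11 were higher and 17 lower (22% and 34%), against 28.6% and 27.6% of all tested genes. Their median log2 fold change there was -0.00030. RPA1, a subunit of the single-strand binding protein, was higher (log2 fold change 1.00, SE 0.05, adjusted p = 5.91e-12), and so was CCNA2, the S and G2 phase cyclin A gene (0.39, SE 0.05, adjusted p = 2.61e-06). E2F2, another activating E2F factor, was lower (log2 fold change -1.44, SE 0.10, adjusted p = 1.55e-10), as was RFC4, a clamp loader subunit (-0.82, SE 0.07, adjusted p = 3.04e-09). In lung-recovered cells relative to ITGB4-low clone 1, 9 were higher and 6 lower (18% and 12%), against 14.7% and 15.4% of all tested genes. Their median there was 0.028. TOP1, the topoisomerase that relaxes DNA ahead of the fork (log2 fold change 0.39, SE 0.05, adjusted p = 1.91e-06), and E2F2 (0.37, SE 0.10, adjusted p = 0.00617) were higher. E2F7, a repressive E2F factor (log2 fold change -0.51, SE 0.07, adjusted p = 1.24e-05), and CCNA2 (-0.38, SE 0.05, adjusted p = 2.37e-06) were lower. In lung-recovered cells relative to ITGB4-high, 9 were higher, led by RPA1 (log2 fold change 0.98) and TOP1 (0.47), and 18 were lower, led by E2F2 (-1.07) and E2F3 (-0.71). These are 18% and 36%, against 26.2% and 25.0% of all tested genes.

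Genes of G2 and mitosis, listed for comparison, had calls opposite in direction to most of the replication genes. Of 26, 18 were higher and 0 were lower in ITGB4-low clone 1 than in ITGB4-high, and 0 were higher and 22 were lower in lung-recovered cells than in ITGB4-low clone 1. The shares of all tested genes were 28.6% higher and 27.6% lower in the first comparison, and 14.7% and 15.4% in the second. Both counts of 0 were also 0 at an unadjusted p below 0.05 in edgeR, with DESeq2 and with limma-voom. AURKB, a mitotic kinase (log2 fold change 1.09, SE 0.06, adjusted p = 2.85e-12), and NDC80, a kinetochore gene (0.79, SE 0.07, adjusted p = 1.29e-08), had the largest rises in ITGB4-low clone 1 over ITGB4-high. MKI67, the proliferation marker Ki-67 (log2 fold change -0.38, SE 0.06, adjusted p = 4.19e-05), and CENPA, the centromeric histone (-0.35, SE 0.05, adjusted p = 1.75e-05), had the largest falls in lung-recovered cells over ITGB4-low clone 1. Relative to ITGB4-high, 9 were higher and 5 lower in lung-recovered cells (34.6% and 19.2%), against 26.2% and 25.0% of all tested genes. The summed level of the 26 genes was 4027 to 4167 CPM in the lung-recovered libraries, 4702 to 4767 CPM in ITGB4-low clone 1 and 3860 to 3996 CPM in ITGB4-high. The ITGB4-low clone 1 libraries, lowest in the sum of the 50 replication genes, were thus highest in this sum.

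**Figure D4:**
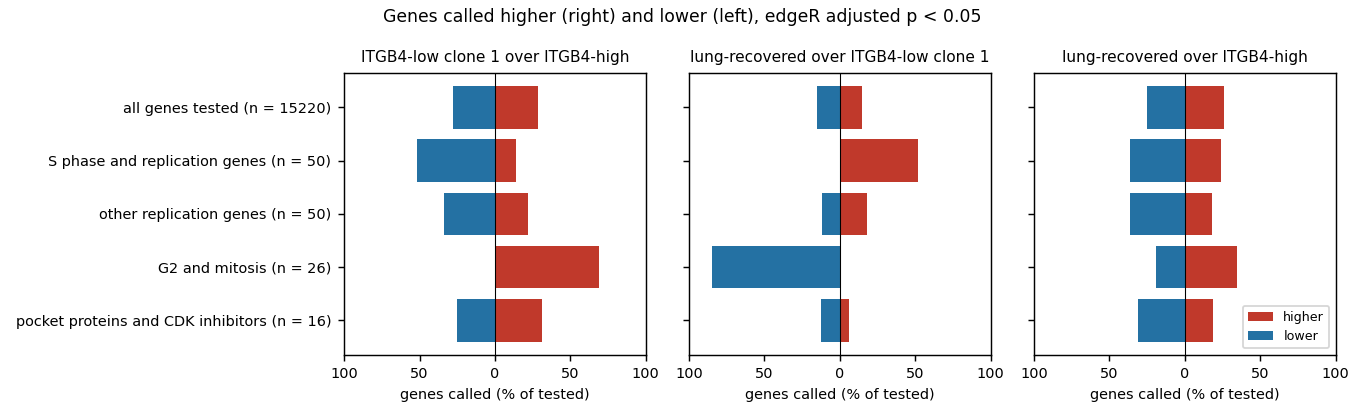
Percent of tested genes called higher (right) and lower (left) in each gene list and among all tested genes, in the 3 comparisons. In lung-recovered over ITGB4-low clone 1, the 50 replication genes have calls only to the right (26 genes) and the 26 G2 and mitosis genes only to the left (22 genes).

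Replication-dependent histone mRNAs mostly lack a poly(A) tail, and these libraries were made from polyadenylated RNA. Of 14 listed, 7 were tested. In ITGB4-low clone 1 over ITGB4-high, 2 of these were higher and 5 not called, where 28.6% of all tested genes were higher. Between lung-recovered cells and ITGB4-low clone 1, 2 were lower and 5 not called, where 15.4% of all tested genes were lower. Only H1-2 was called between lung-recovered cells and ITGB4-high, as lower, with 6 not called. H2AC6 was higher in ITGB4-low clone 1 than in ITGB4-high (log2 fold change 0.77, SE 0.17, adjusted p = 0.000507) and lower in lung-recovered cells than in ITGB4-low clone 1 (-0.69, SE 0.15, adjusted p = 0.00118). H2AC11 was higher in ITGB4-low clone 1 than in ITGB4-high (log2 fold change 0.75, SE 0.23, adjusted p = 0.00824). H1-2 was lower in lung-recovered cells than in ITGB4-low clone 1 (log2 fold change -0.68, SE 0.12, adjusted p = 0.000248). Of 16 tested pocket protein, E2F partner and CDK inhibitor genes, 5 were higher and 4 lower in ITGB4-low clone 1 than in ITGB4-high. These are 31.25% and 25%, near the 28.6% and 27.6% of all tested genes. Within the 16, CDKN1A, which encodes the inhibitor p21, was lower in ITGB4-low clone 1 than in ITGB4-high (log2 fold change -1.02, SE 0.05, adjusted p = 1.08e-12). It was higher in lung-recovered cells than in ITGB4-low clone 1 (log2 fold change 0.44, SE 0.05, adjusted p = 3.76e-07). CDKN1C, which encodes the inhibitor p57 (log2 fold change 0.93, SE 0.19, adjusted p = 0.000341), and RB1, the retinoblastoma gene (0.74, SE 0.05, adjusted p = 3.41e-10), were higher in ITGB4-low clone 1 than in ITGB4-high. TFDP2, an E2F dimer partner (log2 fold change -0.82, SE 0.07, adjusted p = 5.2e-09), was lower there.

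Since ITGB4-low clone 1 is 1 clone, the genes around each member were also measured. The median log2 fold change of tested genes starting within 5 Mb ranged from -0.31 to 0.42 over the 50 members in ITGB4-low clone 1 over ITGB4-high, and was past 0.2 in size for 6 of them. For MCM2 the 71 neighbours had a median of -0.31, in the direction of its own -0.66. For MCM6 the 24 neighbours had a median of 0.21, against its own 0.79. The neighbours of CDCA7 were at 0.27, opposite in sign to its own -1.06. Those of MCM3 were at 0.22, also opposite to its own -0.32. Near RRM2 the 30 neighbours were at 0.26, about its own 0.27, and near TYMS the 27 neighbours were at 0.42, above its own 0.10. Among other genes called higher there, the neighbours of RFC3, GINS4 and POLE2 were at 0.17, 0.14 and 0.18. The values of these genes themselves were 0.15, 0.23 and 0.45. The neighbours of RRM1 and UHRF1 were at 0.013 and -0.16, against their own 0.13 and 0.27. Near UNG, CDT1, E2F1, PCNA and CCNE2 the medians were -0.06, -0.14, 0.02, -0.03 and -0.0073. In lung-recovered cells over ITGB4-low clone 1, which share the clone, the neighbour medians ranged from -0.20 to 0.19, with 0 of 50 past 0.2. In lung-recovered cells over ITGB4-high they ranged from -0.36 to 0.36, with 4 of 50 past 0.2. Those 4 were MCM2 with neighbours at -0.36 and its own -0.34, GMNN at -0.22 with its own -0.22, RRM2 at 0.27 with its own 0.33, and TYMS at 0.36 with its own 0.52. No copy number was measured here, and its part in these values was not tested.

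**Figure D5:**
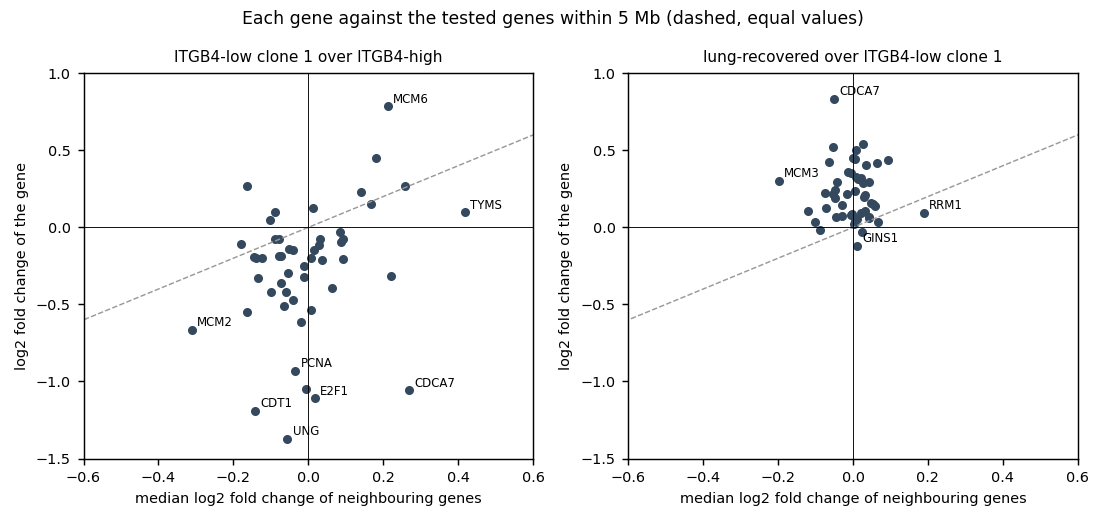
Log2 fold change of each of the 50 genes (vertical axis) against the median of the tested genes starting within 5 Mb of it (horizontal axis), in 2 comparisons, with the line of equal values dashed. UNG, CDT1 and E2F1 lie far below medians of -0.06, -0.14 and 0.02, and no median in the right panel is past 0.2 in size.

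The span of 11 of the 50 genes is overlapped by another annotated gene with at least 10% of its own counts, on the same strand in 4 and on the opposite strand in 8. They are MCM2 (TPRA1), GINS2 (GSE1), POLA1 (a pseudogene), PRIM1 (NACA), RFC5 (WSB2), TYMS (ENOSF1), FEN1 (TMEM258 and FADS2), CHAF1A (UBXN6), CHAF1B (MORC3), HELLS (TBC1D12) and CCNE2 (INTS8 and NDUFAF6). Over all libraries, an overlapping gene had more counts than GINS2, PRIM1, RFC5, FEN1, CHAF1A and CCNE2, and fewer than the others named. NACA had 104326 counts against 8183 for PRIM1, and INTS8 had 8051 against 1059 for CCNE2. The libraries keep strand, but the strand setting of the counting is not given in the sources used here, so reads shared with these genes cannot be told apart.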

How the data were processed

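RNA-seq of 8 SUM159 libraries in 3 groups was analysed from the gene-level counts deposited by the authors as 1 table. Per the submitters' processing notes, the reads were processed with STAR 2.7.1a and hg38; for the counting program, its strand setting and the annotation release, nothing is stated in the sources used here. Per the labels' protocols, poly(A) RNA was made into stranded libraries with dUTP. The samples are labelled as biological replicates, but the labels do not say from which cultures or mice they came, so p-values measure only the spread between these samples.

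Of 58336 identifiers, 58216 were in GENCODE 29 (GRCh38), which gave gene spans and exon lengths; 29279 had no count in any library. Genes were filtered with filterByExpr, which kept 15220 genes holding 99.9% of counts. Counts were scaled by TMM (factors 0.975 to 1.01) and fitted with a term per group over all 8 libraries in edgeR 4.0.16 (R 4.3.3), with a quasi-likelihood F test per comparison and Benjamini-Hochberg adjustment over all tested genes. The common biological coefficient of variation came to 0.0452 (5 residual degrees of freedom). Standard errors are log2 fold changes over the root of F. The fit was also run on simulated data, and the outcome is not given here. Alternatives were DESeq2 1.42.0, limma-voom (limma 3.58.1), 2 other scalings, no filter, a replicate block, fits of only the 2 groups compared, and leaving out each library.

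In each comparison, per-library values are given for up to 5 called members per direction, by size of change, and for a fixed set of helicase, licensing and cyclin genes; up to 2 called genes per direction are named from each further list. The 50 genes and the other lists were chosen with earlier results of these data known.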

Additional observations from a re-analysis of the deposited data

How the results depend on the processing

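Over the 50 genes, 3 comparisons and 15 alternatives, 2122 of 2250 values kept their direction and side of the threshold, 71 lost a call, 17 gained one and 40 reversed. The 40 reversals were in 17 genes, at 19 pairs of a gene and a comparison that were not called in the fit reported, and no reversed value was called. Leaving out 1 library gave 33 of them, with ranges of the log2 fold change that crossed 0. In ITGB4-low clone 1 over ITGB4-high these were -0.176 to 0.0116 for LIG1 and -0.120 to 0.0226 for POLA1. For lung-recovered cells over ITGB4-low clone 1 they were -0.0144 to 0.0600 for BRIP1, -0.0601 to 0.0216 for EXO1, -0.0887 to 0.0627 for GINS3, -0.0386 to 0.118 for GINS4, -0.0312 to 0.121 for POLA1 and -0.0196 to 0.0961 for POLA2. For lung-recovered cells over ITGB4-high they were -0.0719 to 0.0935 for CCNE1, -0.0431 to 0.0640 for CHAF1B, -0.0314 to 0.0977 for CLSPN, -0.0200 to 0.0294 for DTL, -0.155 to 0.0882 for FEN1 and -0.165 to 0.0506 for GINS2. There they were also -0.0262 to 0.0791 for HELLS, -0.0562 to 0.0151 for MCM3, -0.0260 to 0.0295 for POLA1, -0.00295 to 0.0312 for POLD1 and -0.0206 to 0.0777 for POLD3. The other 7 were in that last comparison: POLA1 was at -0.00265 with DESeq2 size factors, -0.00472 with no filter on low counts, -0.00214 with DESeq2 and -0.00142 with limma-voom, DTL at -0.000763 with no filter, and CCNE1 and DTL under the replicate block below. The causes of these changes were not tested.

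In ITGB4-low clone 1 over ITGB4-high, leaving out 1 library gave 3 to 7 higher and 22 to 29 lower replication genes. In lung-recovered cells over ITGB4-low clone 1 it gave 24 to 29 higher and 0 lower genes, and in lung-recovered cells over ITGB4-high 8 to 13 higher and 15 to 19 lower. Where a group was left with 1 library, that library was assumed to vary like the other groups. Calls held in every alternative for 3 of 7 higher and 21 of 26 lower genes in the first comparison, 22 of 26 higher genes in the second, and 8 of 12 higher and 14 of 18 lower genes in the last.

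No pairing of samples by replicate number was seen: same-numbered deviations from the group means correlated at -0.0748 to 0.0400. Deviations within a group are tied to each other by its mean, so these correlations are not independent and cannot exclude a pairing. With a replicate block, 7 replication genes were higher and 24 lower in ITGB4-low clone 1 over ITGB4-high, 26 and 0 in lung-recovered cells over ITGB4-low clone 1, and 12 and 15 in lung-recovered cells over ITGB4-high. Under the block, CCNE1 and DTL in lung-recovered cells over ITGB4-high reversed to -0.0116 and -0.00789. Over all tested genes the block gave 4069 higher and 3921 lower, 2043 and 2103, and 3722 and 3491 in these comparisons. With 2 or 3 libraries a group, changes of low genes such as CCNE1 and POLE2 are the least precise.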
